A study of Mus musculus with 15 samples.

Results

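Chromatin was followed at 8 genes of the Kruppel-like factor family, Klf2, Klf3, Klf4, Klf6, Klf7, Klf9, Klf10 and Klf13, of 22208 protein-coding genes counted in the same libraries. The genes were taken by name from the mm9 annotation. At each gene, sequenced tags were counted in 3 kb centred on the annotated start and in 33 such windows that tile 49.5 kb on either side, 264 windows in all. The tags come from 15 ChIP-seq libraries of C10 cells, a derivative of the mouse pre-B cell line HAFTL that carries C/EBPα fused to the estrogen receptor and marked by GFP. Estradiol carries the fusion protein into the nucleus, and with IL-3 and CSF-1 the cells become macrophage-like. Libraries for H3K27Ac, H3K4Me1 and H3K27Me3 were made 0, 3, 12, 24 and 48 h after induction (hours post-induction, hpi), with 1 library for every mark and time. All 15 libraries come from cells with the transgene, and the labels do not say whether the 0 hpi cells received the ethanol solvent named for control cells. Without replicates no difference between times can be tested, so intervals given here are exact 95% Poisson or conditional intervals that cover counting error only.

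Kruppel-like factors bind GC-rich and CACCC-type sequences through zinc fingers at their carboxyl end, and their amino ends differ in the partners they recruit. Klf2, Klf4, Klf6 and Klf7 are mostly known as activators, Klf3 as a repressor that binds the corepressor CtBP, and Klf9, Klf10 and Klf13 as factors that recruit Sin3A. In blood, Klf2 is known for holding lymphocytes quiescent and guiding their traffic, and Klf4 for promoting monocyte differentiation. H3K27Ac marks active promoters and enhancers, H3K4Me1 marks enhancers and thins out at active starts themselves, and H3K27Me3 is the mark of Polycomb repression. In bulk chromatin, fewer cells with a mark and less of the mark per cell cannot be told apart.

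The deposited libraries held 11.04 to 31.56 M tags and were thinned to 15.22 M for H3K27Ac, 10.91 M for H3K4Me1 and 15.34 M for H3K27Me3. A window was called enriched from 34 tags for H3K27Ac, 27 for H3K4Me1 and 34 for H3K27Me3, where a Poisson tail over the genome mean falls below 0.001. A change is the log2 ratio of tags with 5 tags added, and a call is a change of at least 2-fold. The identity of the cells was checked at the starts of marker genes. All 9 pre-B markers lost H3K27Ac past 2-fold by 48 hpi (summed tags 9462 to 3221) and all 7 macrophage markers gained it (272 to 2942). The 5 T cell and 4 erythroid markers were never enriched for H3K27Ac, with summed tags of 33 to 59 and 24 to 45. Of 5 granulocyte markers, summing to between 38 and 230 tags, Elane and S100a8 passed 2-fold upward and the other 3 were never enriched. Scaling by background bins in place of equal totals multiplies the 48 hpi tags by a factor whose log2 is -0.09 for H3K27Ac, 0.53 for H3K4Me1 and 0.15 for H3K27Me3, and scaling by bins enriched at all 5 times by one of 0.42, 0.07 and -0.17. Because 5 tags are added, changes at windows with few tags shift by less than this. Libraries also differed in how identical tags had been filtered: H3K27Me3 at 0 and 48 hpi held at most 1 tag per position, H3K4Me1 at 0 and 48 hpi up to 205 and 135, and the others up to 2, so 1 tag per position was kept throughout.

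Stretches of the mm9 genome that carry the main findings are printed 5′ to 3′ on the strand of the gene, in lower case. Capitals mark matches, on either strand, to any of 6 short motifs: TTGCGNA (C/EBP), GAGGAAG (PU.1), TGANTCA (AP-1), AAAATAG (Mef2), CACACCC (the CACCC box of Klf factors) and GGGCGGG (the GC box of Klf and Sp factors). The first set holds the 250 bases before 3 starts. Klf10 is shown as the start whose H3K27Ac fell, Klf6 as a start that stayed acetylated inside a locus that gained the mark, and Klf4 as the start that no mark reached. They lie at chr15:38230465-38230714 on the minus strand, chr13:5860485-5860734 on the plus strand and chr4:55545348-55545597 on the minus strand.
Klf10 promoter: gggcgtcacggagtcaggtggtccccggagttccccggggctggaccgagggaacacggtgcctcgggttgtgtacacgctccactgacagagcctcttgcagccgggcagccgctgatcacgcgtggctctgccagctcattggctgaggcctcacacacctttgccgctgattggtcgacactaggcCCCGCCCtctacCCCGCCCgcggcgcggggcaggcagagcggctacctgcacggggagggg
Klf6 promoter: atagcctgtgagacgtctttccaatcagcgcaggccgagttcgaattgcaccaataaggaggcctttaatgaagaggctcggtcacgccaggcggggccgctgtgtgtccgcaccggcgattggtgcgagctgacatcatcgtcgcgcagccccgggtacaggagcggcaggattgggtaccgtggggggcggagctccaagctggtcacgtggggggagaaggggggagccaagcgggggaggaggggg
Klf4 promoter: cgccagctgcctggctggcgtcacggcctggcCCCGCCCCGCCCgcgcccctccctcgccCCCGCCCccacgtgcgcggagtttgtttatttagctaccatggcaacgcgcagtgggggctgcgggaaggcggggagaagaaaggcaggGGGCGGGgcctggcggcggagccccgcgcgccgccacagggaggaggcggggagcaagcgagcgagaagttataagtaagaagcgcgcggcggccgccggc

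These stretches are 69.6% G and C before Klf10, 64.8% before Klf6 and 74.0% before Klf4. The Klf10 stretch held 2 GC boxes and the Klf4 stretch 4, while the Klf6 stretch held no match to any of the 6 motifs. From 250 bases before to 50 after the start, GC boxes were found at 6 of the 8 genes, with 2 matches at Klf2, 5 at Klf3, 4 at Klf4, 2 at Klf7, 2 at Klf10 and 2 at Klf13. Among all protein-coding starts 31.9% held one. The start windows of 6 members were also GC-rich, between percentiles 93.4 and 99.9 of all starts, while Klf6 stood at percentile 49.1 and Klf7 at 61.9. A PU.1 match was present at Klf7 (13.5% of all starts) and an AP-1 match at Klf9 (6.93%). None of the 8 held C/EBP (5.21%), Mef2 (4.0%) or CACCC box letters (8.17%) in this span.

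The second set lies away from the starts and is shown because these windows had the largest rises or falls of H3K27Ac at their genes. Each is the 300 bases of the window that held the most H3K27Ac tags, at 48 hpi where the mark rose and at 0 hpi where it fell, free of annotated exons. Distances are in the direction of the gene. The Klf6 stretch lies between genes at chr13:5874374-5874673 (plus strand) and held 103 tags at 48 hpi. The Klf7 stretch lies in an intron of Klf7 at chr1:64124128-64124427 (minus strand) with 77 tags at 48 hpi. The Klf2 stretches lie past the end of the gene at chr8:74846980-74847279 (plus strand, 118 tags at 48 hpi) and in an intron of the neighbouring gene Eps15l1 at chr8:74874060-74874359 (123 tags at 0 hpi). The Klf10 stretch lies upstream at chr15:38231974-38232273 (minus strand) with 65 tags at 0 hpi.
Klf6 +15 kb: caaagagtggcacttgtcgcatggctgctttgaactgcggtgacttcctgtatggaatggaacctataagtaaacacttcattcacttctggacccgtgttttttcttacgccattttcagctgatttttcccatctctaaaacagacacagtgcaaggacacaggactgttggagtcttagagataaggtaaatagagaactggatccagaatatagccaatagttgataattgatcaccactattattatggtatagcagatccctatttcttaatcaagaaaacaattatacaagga
Klf7 +45 kb: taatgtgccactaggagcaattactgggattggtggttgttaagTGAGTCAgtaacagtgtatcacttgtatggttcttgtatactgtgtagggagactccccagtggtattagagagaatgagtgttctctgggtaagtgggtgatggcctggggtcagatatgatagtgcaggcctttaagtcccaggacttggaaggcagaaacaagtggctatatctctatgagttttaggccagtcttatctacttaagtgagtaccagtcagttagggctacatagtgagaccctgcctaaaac
Klf2 +3 kb: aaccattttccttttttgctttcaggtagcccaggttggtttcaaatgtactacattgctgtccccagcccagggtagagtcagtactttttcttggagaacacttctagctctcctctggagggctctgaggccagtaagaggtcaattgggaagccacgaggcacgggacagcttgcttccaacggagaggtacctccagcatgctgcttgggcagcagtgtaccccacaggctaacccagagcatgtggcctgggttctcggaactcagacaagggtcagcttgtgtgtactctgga
Klf2 +30 kb: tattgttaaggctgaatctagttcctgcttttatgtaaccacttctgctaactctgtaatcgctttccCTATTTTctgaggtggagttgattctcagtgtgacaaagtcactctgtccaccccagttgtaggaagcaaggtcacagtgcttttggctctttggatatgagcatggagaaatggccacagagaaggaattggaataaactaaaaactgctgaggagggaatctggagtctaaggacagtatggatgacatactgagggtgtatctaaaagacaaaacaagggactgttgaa
Klf10 -3 kb: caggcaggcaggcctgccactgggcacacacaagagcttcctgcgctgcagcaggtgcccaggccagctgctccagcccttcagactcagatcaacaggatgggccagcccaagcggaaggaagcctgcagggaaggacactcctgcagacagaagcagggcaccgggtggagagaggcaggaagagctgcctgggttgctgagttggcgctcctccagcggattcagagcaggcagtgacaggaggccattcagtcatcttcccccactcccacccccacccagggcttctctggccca

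An AP-1 match stands in the Klf7 stretch and a Mef2 match in the Klf2 stretch at +30 kb, and the other 3 held no match. Among the middle 300 bases of windows around all protein-coding starts, 8.49% held an AP-1 match and 6.82% a Mef2 match. Over the whole 3 kb, C/EBP letters occurred 2 times in the Klf6 window at +15 kb, 2 times in the Klf2 window at +3 kb and once in the Klf3 window at +6 kb, 3 of the 9 windows described here as largest changes, against 12.7% of 710656 windows. AP-1 letters occurred in 5 of the 9 windows (58.4% of all windows), PU.1 letters in 6 (62.8%), Mef2 letters in 4 (49.1%), CACCC box letters in 7 (45.2%) and GC box letters in 1 (18.2%). The C/EBP matches outside exons in the Klf6 and Klf2 windows are shown with 27 bases on either side, and the Klf3 match is not printed. All 4 lie on the plus strand, at chr13:5876026-5876086 and chr13:5876272-5876332 near Klf6 and at chr8:74845982-74846042 and chr8:74846636-74846696 past Klf2.
Klf6 +15 kb, match 1: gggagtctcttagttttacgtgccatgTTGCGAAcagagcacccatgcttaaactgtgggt
Klf6 +15 kb, match 2: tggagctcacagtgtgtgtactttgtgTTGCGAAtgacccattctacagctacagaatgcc
Klf2 +3 kb, match 1: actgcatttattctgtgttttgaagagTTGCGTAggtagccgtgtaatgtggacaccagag
Klf2 +3 kb, match 2: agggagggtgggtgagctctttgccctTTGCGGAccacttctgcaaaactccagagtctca

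At the starts, 7 of the 8 genes carried H3K27Ac far above the enrichment limit in all 5 libraries, and Klf10 alone passed 2-fold in either direction. Of all 22208 starts, 9.38% fell past 2-fold from 0 to 48 hpi and 5.28% rose. The share of all starts enriched in all 5 libraries was not counted. A mean of at least 20 H3K27Ac tags was held by 11124 starts (50.1%), to which those 7 belong, and of these starts 14.7% fell and 6.40% rose. At 3 hpi no member had passed 2-fold, and 4.21% of all starts had risen and 1.90% had fallen.

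**Figure D1:**
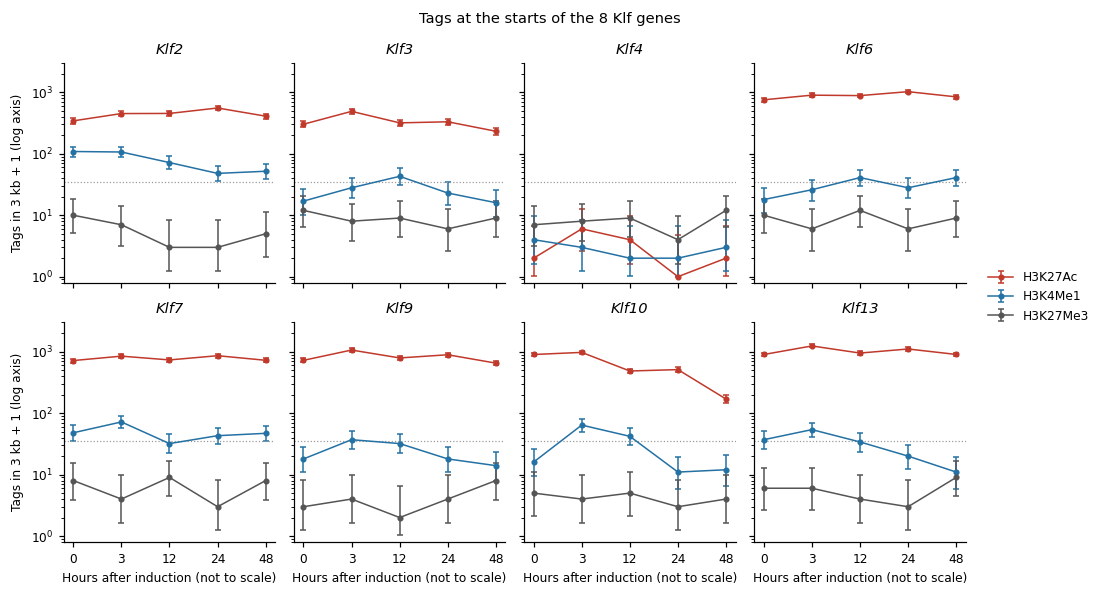
Tags in the 3 kb at each start (vertical log axis, 1 tag added) against hours after induction, with 1 library per point and exact 95% Poisson intervals as bars; the dotted line is the H3K27Ac enrichment limit of 34 tags. H3K27Ac ran between 169 and 1242 tags at all genes but Klf4, where it was 0 to 5 tags, and fell to 169 tags at Klf10.

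Klf10, an early gene of the TGF-β response, had 901, 975, 485, 511 and 169 H3K27Ac tags at its start at 0, 3, 12, 24 and 48 hpi. It was lower from 12 hpi on, and the 48 hpi library lies far below the other 4. Scaled by background bins the levels were 901, 804, 441, 745 and 159, so that 24 hpi stood well above 12 hpi. The change was -2.38 on the log2 scale (a ratio to 0.192 of the first level), with a counting interval of -2.66 to -2.18 for the ratio without added tags, and it lay between -2.46 and -1.97 under the other scalings. From percentile 98.8 of all starts at 0 hpi the gene came down to percentile 69.3.

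Klf13, known for the control of Ccl5 in T cells, matched Klf10 at 0 hpi with 901 tags and then had 1242, 951, 1108 and 903. Klf9, a gene that glucocorticoids induce, had 724, 1065, 792, 892 and 652 tags. With equal totals both ended near where they began, with changes of 0.00 and -0.15, and with always enriched bins the changes were 0.42 and 0.26. Their highest library was 3 hpi, but 24 hpi under background scaling.

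Klf6, an activator of injury and inflammatory genes, had 756, 900, 885, 1026 and 844 tags, and Klf7, best known from neurons, had 718, 847, 735, 861 and 725. Klf2 had 343, 451, 453, 556 and 409 tags. These 3 starts were highest at 24 hpi, Klf6 and Klf7 at 48 hpi under scaling by always enriched bins, and their 48 hpi changes were 0.16, 0.01 and 0.25. With always enriched bins these changes were 0.57, 0.43 and 0.66, and counted in 6 kb at the start they were 0.43, 0.40 and 0.62. Klf3, which had 302, 490, 318, 331 and 232 tags, changed by -0.37. Another annotated start of Klf3, 8950 bases into the gene, held more in every library with 718, 671, 649, 687 and 422 tags, a change of -0.76. The sign of the small changes at Klf3 and Klf9 turned under scaling by bins enriched at all 5 times (0.04 and 0.26), and that at Klf7 turned under background scaling (-0.07), as did that at Klf13 (-0.08).

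Klf4 stood apart from the rest with 1, 5, 3, 0 and 1 H3K27Ac tags. H3K4Me1 gave 3, 2, 1, 1 and 2 tags there and H3K27Me3 6, 7, 8, 3 and 11, 54 tags in all 15 libraries together. All 36-base stretches of this start are unique in the genome (100%), and its GC content is 61.8%. Why so few tags lay there was not tested. Being under the limit in every library was common: 7143 starts (32.2%) were, including 36.8% of the 353 starts that are at least as GC-rich as Klf4.

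Ranked by H3K27Ac at 0 hpi the starts ran Klf10 and Klf13, Klf6, Klf9, Klf7, Klf2, Klf3 and Klf4. Counting intervals of neighbours overlapped between Klf10 and Klf13, between Klf6, Klf9 and Klf7 in turn, and between Klf2 and Klf3. At 48 hpi the order was Klf13, Klf6, Klf7, Klf9, Klf2, Klf3, Klf10 and Klf4, with overlap only between Klf13 and Klf6 and between Klf7 and Klf9. Of the 7 acetylated starts, 4 had their highest library at 3 hpi and 3 at 24 hpi. Over all 11124 starts these times held the maximum in 38.6% and 24.8%, and the median start changed by 0.13 at 3 hpi and -0.25 at 48 hpi. The time of the highest library rests on the scaling: with background bins 6 of the 7 were highest at 24 hpi (77.6% of all), 0 at 3 hpi (4.04%) and Klf10 at 0 hpi (15.7%). With always enriched bins 4 were at 3 hpi (39.5% of all), 1 at 24 hpi (8.97%) and 2 at 48 hpi (28.7%).

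At 0 hpi the starts of Klf2, Klf7 and Klf13 were enriched for H3K4Me1, a mark typical of enhancers, and the other 5 were below the limit. Their levels stood at percentiles 96.3 (Klf2), 70.9 (Klf7) and 62.3 (Klf13) of all starts. Klf2 had the most at 0 hpi, with 108, 106, 71, 47 and 51 tags, a change of -1.01 that shrank to -0.52 under background scaling. Klf7 had 47, 71, 31, 42 and 46 tags (-0.03), and Klf13 had 36, 53, 33, 19 and 10 (-1.45). Klf6 had 17, 25, 40, 27 and 40 tags (1.03), but 0.72 without thinning. By count, 2 of the 8 fell and 1 rose, where 9.64% and 3.27% of all starts did, and of the 3 only Klf13 held under every scaling and without thinning. Klf10 had 15, 63, 41, 10 and 11 tags of H3K4Me1, so that its highest libraries were 3 and 12 hpi, before most of its H3K27Ac was gone. H3K27Me3 stayed low at the 8 starts, with 11 tags at most at 0 and 48 hpi, no start was enriched for it in any library and none passed 2-fold (1.59% of all starts rose and 1.92% fell). A mean of at least 20 H3K27Me3 tags was held by 33.5% of all starts and by 0 of the 8.

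Around the starts, the windows that tile the loci were counted in the same way. In H3K27Ac, 125 of the 264 windows had a mean of at least 20 tags, and 39 of these rose (31.2%) and 13 fell (10.4%). Windows around all protein-coding starts gave 30.9% and 13.7%, which are near the shares of the members as a whole. Scaling by bins enriched at all 5 times gave 56 rises and 6 falls, which moves the share of rises among the calls from 75.0% to 90.3%. Over all windows around protein-coding starts this scaling moved rises from 55362 to 83151 and falls from 24460 to 15642. Each of the 39 rises was past 2-fold under every scaling, without thinning and with tags as deposited, and 6 of the 13 falls were. These 2 counts cannot be compared, because the 2 scalings shift the log2 change by about -0.09 and 0.42. They could take little from a rise and much more from a fall. The members differed widely: 15 of 24 windows rose at Klf7 (62.5%), 11 of 20 at Klf6 (55.0%), 6 of 25 at Klf13, 4 of 24 at Klf2, 2 of 11 at Klf3, 1 of 11 at Klf9 and 0 of 10 at Klf10, while Klf4 had no window to count. Falls were found at Klf2 (7), Klf10 (4) and Klf13 (2).

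**Figure D2:**
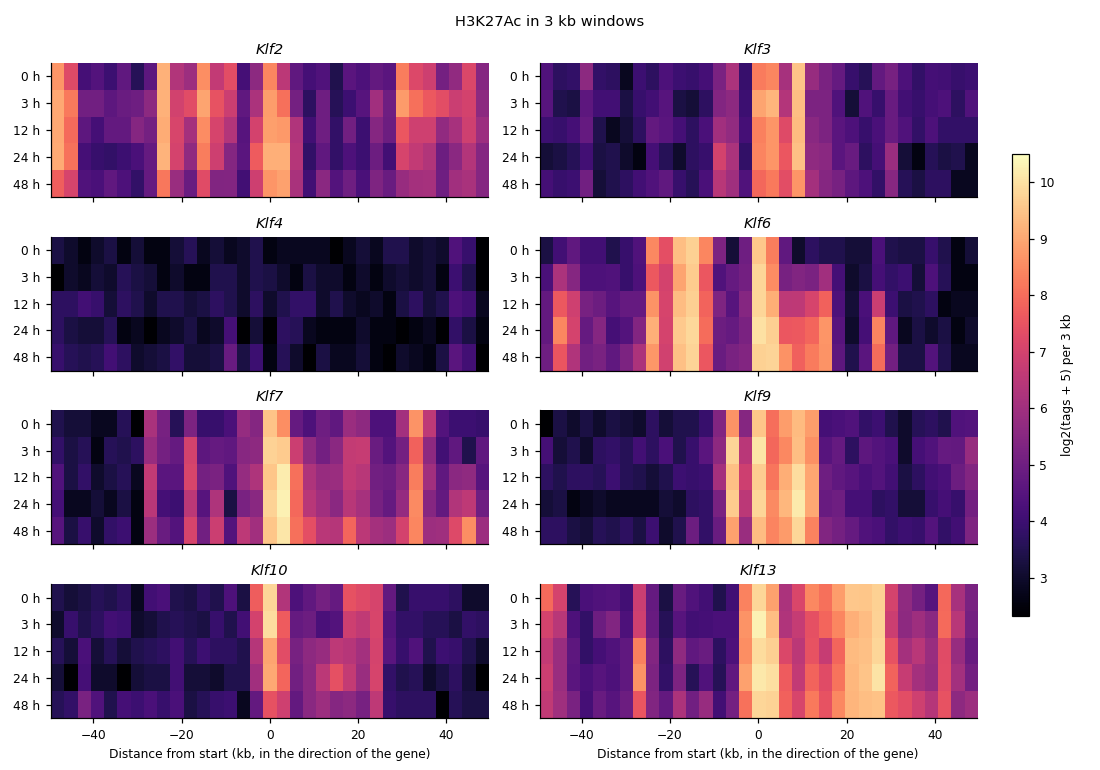
H3K27Ac as log2(tags + 5) per 3 kb (colour) against distance from the start in the direction of the gene, with 1 row per time and 1 panel per gene. New bright columns appear on both sides of Klf6 and through Klf7, and Klf4 stays dark. Some columns flanking Klf2 are darker at 48 hpi than at 0 hpi, while the one just past its start brightens.

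At Klf6 the gains lay on both sides of a start that stayed short of 2-fold. The window at +15 kb had 6, 59, 216, 414 and 401 H3K27Ac tags, the largest rise of all 264 windows (5.21 on the log2 scale, with intervals of 2.20 to 13.1 tags at 0 hpi and 363 to 442 at 48 hpi). Already at 3 hpi it was above the limit, and the last 2 libraries lie above the first 3. Beside it, +12 kb had 8, 33, 130, 227 and 297 tags and +9 kb had 3, 36, 91, 190 and 214. Together with +3 and +6 kb they form an unbroken run of 5 risen windows from inside the gene outward. Farther out, +27 kb had 14, 13, 106, 335 and 251 tags, and -45 kb had 12, 68, 190, 346 and 180. A block upstream was acetylated from the beginning, and none of its windows was past 2-fold at 48 hpi. There, -15 kb had 836, 786, 816, 915 and 872 tags, -12 kb had 345, 187, 223, 249 and 188 (-0.86), and -24 kb had 348, 190, 397, 565 and 419 (0.26). Under background scaling -24 kb changed by -1.13 at 3 hpi and 1.23 at 24 hpi, and -12 kb by -1.14 at 3 hpi. Over the 99 kb, H3K27Ac went from 3683 to 6222 tags (0.76) and H3K4Me1 from 1233 to 2489 (1.01), percentiles 88.1 and 94.8 of all genes.

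Klf7, a gene of 92836 bases, gained H3K27Ac along its introns, with 12 of its 15 risen windows downstream of the start. Largest was +45 kb with 11, 6, 46, 92 and 373 tags (4.56, intervals 5.49 to 19.7 and 336 to 413), a window that stayed low until 12 hpi and where the 48 hpi library lies far above the rest. Next to it, +42 kb had 11, 21, 42, 76 and 145. Nearer the start, +6 kb had 23, 109, 263, 240 and 264 tags and was past 2-fold at 3 hpi, while +18 kb had 54, 97, 95, 83 and 230 and passed it at 48 hpi. Of the 15 risen windows, 4 were first past 2-fold at 3 hpi, 5 at 12, 2 at 24 and 4 at 48 hpi. Upstream, -12 kb had 10, 23, 33, 72 and 110. The locus went from 2190 to 4576 H3K27Ac tags (1.06) and from 1302 to 2654 H3K4Me1 tags (1.02), percentiles 92.7 and 94.9.

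**Figure D3:**
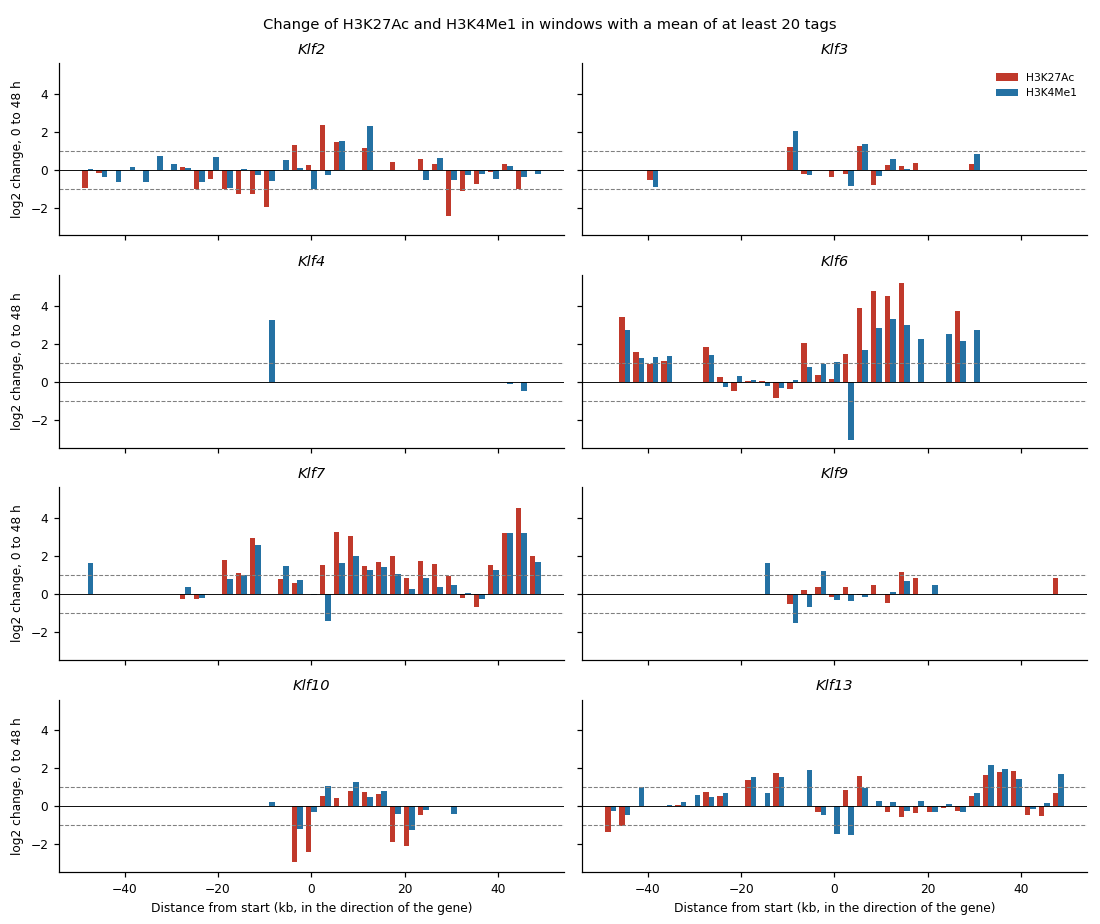
Change from 0 to 48 hpi (log2, 5 tags added) of H3K27Ac and H3K4Me1 in windows with a mean of at least 20 tags, against distance from the start, with dashed lines at 2-fold. Both marks go up together at most windows of Klf6 and Klf7, but at +3 kb H3K27Ac goes up and H3K4Me1 down.

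Klf2 lost H3K27Ac on both flanks from 0 to 48 hpi and gained it next to the gene, but some flank windows first rose at 3 hpi. The window at +3 kb, which spans the end of this short gene (2624 bases), had 87, 259, 425, 559 and 469 tags (2.37), while its H3K4Me1 had 143, 143, 106, 108 and 116. In the intron of Eps15l1 at +30 kb, H3K27Ac had 305, 440, 186, 128 and 52 tags (-2.44, intervals 272 to 341 and 38.8 to 68.2), highest at 3 hpi and lowest at 48 hpi. On the other side, -9 kb had 159, 111, 77, 38 and 37 tags (-1.97) and -24 kb had 575, 570, 539, 584 and 285 (-1.0). The fall at -24 kb was seen in the last library alone, and 5 of the 7 falls here had 48 hpi as their first time past 2-fold. Under scaling by always enriched bins only +30 kb and -9 kb stayed past 2-fold. H3K4Me1 remained at these places, with 279, 338, 277, 268 and 194 tags at +30 kb and 176, 199, 186, 124 and 114 at -9 kb. At 3 hpi the H3K27Ac changes were 2.23 at +39 kb, 1.41 at -18 kb, 1.25 at +24 kb and 1.11 at +42 kb. Under background scaling they were 1.96, 1.14, 0.99 and 0.84. The window at -18 kb, 1 of the 7 falls, had 55, 154, 62, 46 and 25 H3K27Ac tags. In contrast, -9 kb was already lower at 3 hpi (-0.50). Over the 99 kb, H3K27Ac went from 3411 through 4896 at 3 hpi to 2637 tags, a change of -0.37 that became 0.05 under scaling by always enriched bins.

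From 0 to 48 hpi Klf10 lost H3K27Ac at 4 of its 10 counted windows, the start among them, and gained it at none. With always enriched bins 3 windows rose. Between these times +15 kb stood higher, with changes of 1.73 at 12 hpi and 2.61 at 24 hpi, and 0.65 at 48 hpi. The upstream window of Klf10 at -3 kb had 204, 122, 80, 60 and 22 tags (-2.95, intervals 177 to 234 and 13.8 to 33.3), lower in every library than in the one before. With background scaling its change was -1.43 at 12 hpi and -1.18 at 24 hpi, so that 24 hpi stood above 12 hpi. Past the gene, +18 kb had 168, 112, 81, 97 and 43 tags and +21 kb had 149, 93, 61, 53 and 31. All 4 falls held under every scaling. H3K4Me1 fell with it at -3 kb (126, 107, 73, 73 and 53 tags) and +21 kb (230, 213, 154, 141 and 94), though not past 2-fold under background scaling (-0.69 and -0.74). Within the gene it rose, to 179 tags from 81 at +3 kb, where H3K27Ac had 76, 201, 155, 227 and 114. The locus sum of H3K27Ac fell from 1897 to 846 tags, percentile 3.92 of all genes, while that of H3K4Me1 was 1162 and 1160.

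Klf13 held the most H3K27Ac over its locus of the 8 genes, with H3K27Ac sums of 6458, 6426, 6400, 7334 and 6678 tags. Inside the gene, +12 kb changed by -1.05 at 3 hpi and -0.27 at 48 hpi, and +15 kb by -1.30 at 12 hpi and -0.57 at 48 hpi. Within its intron, +24 kb had 728, 652, 691, 720 and 677 tags. Farther into the gene the mark rose, where +33 kb had 46, 44, 62, 102 and 157 tags and +39 kb had 18, 42, 53, 50 and 79 (1.87). Beyond these, +42 kb had 238, 245, 151, 156 and 172 tags (-0.46) and +45 kb had 66, 82, 51, 61 and 45 (-0.51). The opposite end of the locus, -48 kb, had 244, 125, 96, 111 and 93 tags (-1.35), with its largest step between 0 and 3 hpi, a change that under scaling by always enriched bins was -0.95.

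Klf3 and Klf9 had few H3K27Ac windows past 2-fold at 48 hpi and none that fell. Klf3 rose at +6 kb in its own intron, with 64, 78, 148, 188 and 158 tags, and at -9 kb with 33, 37, 60, 122 and 83. Klf9 passed 2-fold at 48 hpi at +15 kb only, on few tags (13, 18, 27, 24 and 36). At -6 kb it had 396, 874, 684, 788 and 470 tags, a change of 1.13 at 3 hpi (0.86 under background scaling) and of 0.24 at 48 hpi. At 24 hpi the change there was 0.98 (1.52 under background scaling). The window at -3 kb changed by 1.02, 1.42 and 1.05 at 3, 12 and 24 hpi, and by 0.40 at 48 hpi.

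**Figure D4:**
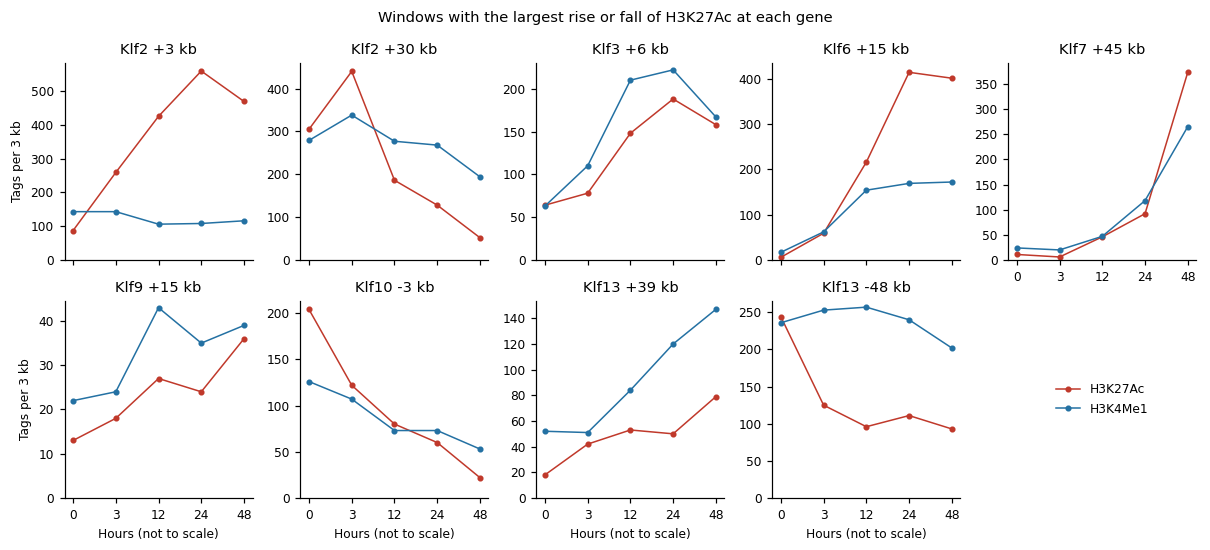
H3K27Ac and H3K4Me1 tags per 3 kb at each time in the window with the largest rise and the window with the largest fall past 2-fold at each gene, each panel on its own vertical axis from 0. Klf6 +15 kb climbs to 401 H3K27Ac tags and Klf7 +45 kb to 373, while Klf2 +30 kb drops to 52 and Klf10 -3 kb to 22.

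In time, 11 of the 39 rises of H3K27Ac were first past 2-fold after 3 h, 12 after 12 h, 8 after 24 h and 8 after 48 h. For all risen windows around protein-coding starts the shares were 19%, 34.1%, 21.0% and 26.0%. None of the 13 falls had come by 3 hpi, where 29.5% of all fallen windows had, and 6 came by 12 h, 1 by 24 h and 6 by 48 h. With background scaling 1 of 15 falls, at Klf13 -48 kb, had come by 3 hpi (41.7% of all), and with always enriched bins 0 of 6 had (29.8%), while the rises first past 2-fold at 3 hpi were 9 of 39 (13.5% of all) and 15 of 56 (16.9%). Klf6 supplied 5 of the 11 early rises and none of the 48 hpi rises, and Klf7 supplied 4 of each.

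In H3K4Me1, of 142 windows with enough tags, 44 rose (31%, against 21.7% around all starts) and 8 fell (5.63%, against 9.62%). Under background scaling, which raises the 48 hpi tags of every window by the same factor, 73 rose and 4 fell. The shares around all starts were not counted under that scaling. Klf6 had 14 of the rises and Klf7 13. Of the 39 windows with more H3K27Ac, 29 (74.4%) also had more H3K4Me1, as did 54.9% of such windows around all starts. The 2 windows with more H3K27Ac and less H3K4Me1 lay at +3 kb in Klf6 and in Klf7, a pairing seen in 0.556% of all risen windows at any distance. The share among windows at +3 kb alone was not counted. At Klf6 +3 kb, H3K4Me1 had 69, 88, 121, 45 and 4 tags (-3.04) while H3K27Ac had 306, 367, 546, 811 and 869. At Klf7 +3 kb, H3K4Me1 had 82, 130, 61, 41 and 28 tags (-1.40) and H3K27Ac 373, 787, 1164, 1251 and 1083. Klf13 was alike at +3 kb, with H3K4Me1 of 102, 113, 112, 41 and 33 tags (-1.49) and H3K27Ac of 469, 672, 825, 998 and 849, a change of 0.85 that is short of 2-fold. With equal totals, the H3K4Me1 of 24 and 48 hpi lies below that of the first 3 libraries in all 3. Background scaling multiplies the 24 hpi tags of H3K4Me1 by 1.54, and the order of libraries was not recounted under it. Of the falls of H3K4Me1 at these 3 windows, the one at Klf7 was -0.94 at 48 hpi under background scaling.

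Near Klf4 a single window took up an active mark. At -9 kb, H3K4Me1 had 3, 5, 5, 29 and 72 tags (3.27), enriched at 24 and 48 hpi only, and H3K27Ac had 2, 6, 6, 13 and 24, under the limit throughout. No other window upstream was counted in either active mark, and no Klf4 window was enriched for H3K27Ac in any library.

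H3K27Me3 rose most from 0 to 48 hpi over 3 loci whose starts it never covered. Summed over 99 kb it had 700, 712, 838, 936 and 1024 tags at Klf4, 752, 758, 1064, 1087 and 1142 at Klf6 and 733, 768, 965, 921 and 1075 at Klf9. The changes of 0.55, 0.60 and 0.55 stood at percentiles 98.3, 98.8 and 98.4 of all genes, whose median was 0.03, and they were 0.38, 0.43 and 0.38 with the scaling that lowers them most. In all 3 the libraries from 12 hpi on lie above those of 0 and 3 hpi. The same order was seen at Klf3, Klf7, Klf10 and Klf13, though not at Klf2. At Klf2, Klf3, Klf7, Klf10 and Klf13 the changes were -0.01, 0.17, 0.02, 0.33 and 0.12, with Klf10 at percentile 92.4. From 0 to 48 hpi the enriched windows of 33 went from 2 to 13 at Klf4 and from 9 to 13 at Klf9, and were 9 at both times at Klf6 and 19 and 21 at Klf10, which had the most. Over the genome 14.1%, 13.9%, 14.7%, 15.5% and 15.5% of 3 kb windows with tags were enriched for it at 0, 3, 12, 24 and 48 hpi. By windows, 9 of 117 rose past 2-fold (7.69%, against 1.46% around all starts) and 0 fell (0.537% around all starts): 4 upstream of Klf4, 4 downstream of Klf6 and 1 upstream of Klf9. These calls were close to the threshold (1.01 to 1.21), and they became 3 without thinning and 2 under scaling by always enriched bins. At Klf6 they lay at +21, +30, +36 and +42 kb, beyond the run that gained H3K27Ac and on both sides of its gain at +27 kb, with 55, 64, 119, 84 and 116 tags at +30 kb. Of the 36-base stretches, 53.2% were unique in the genome at +21 kb and 68.5% at +42 kb, but 99.4% at +30 kb and 99.2% at +36 kb. The 0 hpi library of H3K27Me3 was the deepest deposited (31.56 M tags), and the part of its processing in these changes was not tested.

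**Figure D5:**
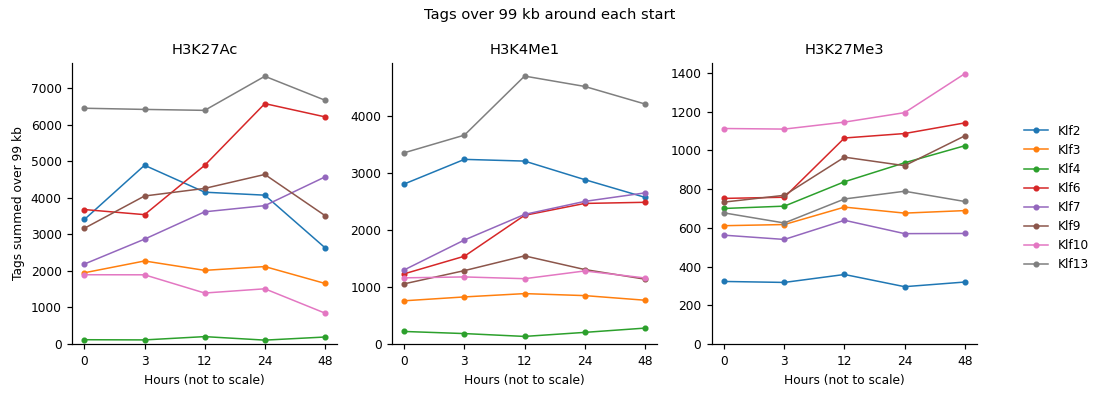
Tags summed over 99 kb around each start, by mark, against hours after induction, with 1 line per gene and 1 library per point on axes from 0. H3K27Ac climbs at Klf6 and Klf7 and drops at Klf10, H3K4Me1 climbs at Klf6 and Klf7, and H3K27Me3 climbs most at Klf4, Klf6 and Klf9.

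By likeness over all 15 libraries (root mean square difference of log2 tags, 5 added, at the start), the starts most like each member were as follows. Among the starts closest to Klf10 were Lef1 (0.43) and Kcnq5 (0.44), and its nearest member was Klf9 at 0.67. Klf6 was nearest to Dnajb4 (0.33), Fubp1 and Tmem69, and Klf7 to Sf3b4 (0.25), Tcta and Arpc4. For Klf2 they were Abcf2 (0.25), Syf2 and Hps5, for Klf3 Psma5 (0.22), BC049715 and N4bp2l2, and for Klf9 Asxl2 (0.22), Strn3 and Ddx5. Klf13 was nearest to Zfp36 (0.24), Ptbp1 and Slc39a10, and Klf4 to Ces1b (0.21), C530025M09Rik and Olfr486, starts with as few tags. Among the members Klf9 and Klf13 were the closest pair at 0.39.

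The other genes of the pathway were read at their starts against the same background (5.28% of all starts rose in H3K27Ac and 9.38% fell). Of 9 other Klf genes, Klf1, Klf8, Klf11 and Klf16 were enriched for H3K27Ac at 0 and at 48 hpi and 5 never were. The calls here rest on few tags: H3K27Ac at Klf12 had 0, 2, 3, 0 and 5 tags and at Klf14 5, 13, 3, 1 and 0, and H3K27Me3 at Klf16 had 0, 5, 5, 3 and 6. None of 9 Sp genes, which bind the same GC box, passed 2-fold in any mark, and their median H3K27Ac change was 0.00. Among 9 cofactors, all enriched at both ends, the acetyltransferase Kat2b fell with 585, 514, 473, 500 and 251 tags (-1.20), and Sin3b rose in H3K27Me3 with 8, 21, 22, 21 and 32 tags while its H3K27Ac had 159 at first and 194 at last. Upstream of Klf2, the kinase gene Mapk7 had 305 and 388 H3K27Ac tags at 0 and 48 hpi and Mef2a 441 and 491, while Mef2d had 1331 and 693 (-0.94). Mef2c, a Mef2 gene active in B cells, fell from 60 to 16 tags (-1.63), and the median change of these 4 genes was -0.39 (-0.14 over all starts).

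Of the known targets of Klf2 and Klf4 described here, Itgb7, Cdkn1a and Nos3 gained H3K27Ac past 2-fold from 0 to 48 hpi, and S1pr1 and Thbd did not pass 2-fold. Itgb7, an integrin chain of homing lymphocytes, had 13, 44, 402, 693 and 817 tags (5.51) and at the same time H3K27Me3 of 68, 63, 78, 47 and 14. Cdkn1a, the cell cycle inhibitor p21, had 49, 53, 46, 102 and 199 tags (1.92), and Nos3 stayed low with 9, 7, 35, 29 and 27 (1.19). S1pr1, the receptor that lets lymphocytes leave tissues, had 99, 157, 145, 179 and 150 tags (0.58), and Thbd had 1073 at 0 hpi and 537 at 48 hpi (-0.99). H3K4Me1 rose at Itgb7, with 52, 139, 265, 173 and 148 tags, and at Nos3, with 13, 8, 27, 53 and 41.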

How the data were processed

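C10 cells were profiled by ChIP-seq for 3 histone marks at 5 times. The labels give the mark and the time of each library, and every group so formed holds 1. The authors aligned the reads to mm9 with Eland or Bowtie, kept uniquely aligned tags and removed identical ones, and which aligner served which library is not given in the sources used here. The deposited files hold tag positions of 36 bp without strand, not counts, so the tags were counted here. The last 2 lines of 3 files gave no position and were left out.

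Chromosomes 1 to 19 and X were used, with 1 tag per position, placed 18 bp from its start. Libraries were thinned at random (seed 1) to the smallest of their mark. Gene starts were the 5′ ends of protein-coding genes in GENCODE vM1, and a second annotated start was tried. Only windows with a mean of at least 20 tags over the 5 times were called. Uniqueness of 36-mers, GC content and motif letters were read from the mm9 sequence. A share of starts or windows is given beside each count of calls in place of a test.

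Genes and lists were chosen with earlier results of these data known. All 8 genes are described, with the window away from the start that rose most and fell most in H3K27Ac past 2-fold at each, the 3 starts most alike and list genes past 2-fold. Some genes that this rule takes are not reported here, and no count or median is given for the list of targets. Further windows named were chosen after their values were seen. Python 3.11.15, numpy 2.4.6, pandas 2.3.3 and scipy 1.17.1 were used. The calls were also run on simulated Poisson counts, which had no variation between libraries and no true change near 2-fold. That run cannot speak for calls close to the threshold.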

Additional observations from a re-analysis of the deposited data

How the results depend on the processing

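No paired analysis was possible because there was a single library for a mark at a time, and for the same reason no library could be left out. Of 90 counts of calls recomputed under other settings 65 stayed within 1.5 times of the reported count, and of 168 changes at single starts 155 stayed within their counting interval and none that had passed 2-fold turned sign. Those outside were H3K27Ac changes, apart from H3K4Me1 at Klf2 under background scaling. Scaling by always enriched bins moved H3K27Ac out of its interval at every start but that of Klf4. Starts with few tags have wide intervals and so rarely leave them. Falls of H3K27Ac in windows went from 13 to 6 with scaling by always enriched bins. Rises of H3K4Me1 at starts went from 1 to 0 without thinning and with tags as deposited, and falls from 2 to 1 under both scalings, without thinning, with tags as deposited and with 6 kb at the start. In windows, rises of H3K4Me1 went from 44 to 73 with background scaling, and falls from 8 to 4 with background scaling, 16 at 1.5-fold and 14 without the filter on low windows. Rises of H3K27Me3 in windows went from 9 to 16 with background scaling, 2 with always enriched bins, 3 without thinning, 3 with tags as deposited, 14 with a pseudocount of 1 and 33 at 1.5-fold. Falls of H3K27Me3 in windows went from 0 to 1 with a pseudocount of 1, 2 at 1.5-fold and 1 without the filter, and at starts 1 rise and 1 fall appeared with a pseudocount of 1 and again at 1.5-fold. Scaling at 3, 12 and 24 hpi was added after the data were seen: the H3K27Ac starts highest at 3 hpi went from 4 to 0 and those at 24 hpi from 3 to 6 with background scaling, and those at 24 hpi from 3 to 1 with always enriched bins. The cause was not tested in any of these, other than the wider call at 1.5-fold.

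Depth limits the low windows most: a mean window held 18.5 tags of H3K27Ac, 13.4 of H3K4Me1 and 18.5 of H3K27Me3, and at the 8 starts H3K27Me3 changes of 2-fold lie within counting error.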
